A study of Caenorhabditis elegans with 20 samples.

Results

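The 6 genes ZK742.3, ZK742.4, swt-6, C53B4.3, F12E12.11 and F14B4.2 of the nematode Caenorhabditis elegans had higher levels with the compound F17 in wild-type animals and a much smaller response in animals mutant for nhr-131. They were chosen by name, from the counts described here, as F17-responsive genes outside the cytochrome P450 (cyp), UDP-glucuronosyltransferase (ugt) and glutathione S-transferase (gst) families, most of them with a smaller response in nhr-131 animals. They are 6 of 28301 genes in the table, and all 6 were among the 13795 genes tested. Because their response to F17 in both genotypes chose them, every value of that response is given as a description, with no test. Their level in the solvent alone was also compared between genotypes, by a test that is not independent of the choice because the same DMSO libraries enter it.

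Counts came from whole animals of the L4 larval stage in 4 groups of 5 libraries, described by the submitters as independent biological replicates. The groups were nhr-131 mutants with F17, nhr-131 mutants with DMSO, wild type with F17 and wild type with DMSO. All animals grew in liquid culture, and F17 was given at 2.5 µM, or the solvent DMSO alone at 0.1%, for the 4 h before harvest. F17 is known here only by this code. The columns of the wild type are named N2, the standard laboratory wild-type strain. The labels do not give the nhr-131 allele, so how the gene is altered is not stated here.

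Nuclear hormone receptors are transcription factors whose activity can be set by small lipid-like ligands. The family is greatly expanded in C. elegans, most of its members are related to the vertebrate receptor HNF4, and several are known for switching on detoxification genes when the animal meets foreign compounds. nhr-131 encodes one of these receptors. Among the 6 genes, swt-6 belongs to the SWEET family of membrane transporters that let sugars pass down their gradient. F14B4.2, whose current name is hxk-1, encodes a hexokinase, the enzyme that adds a phosphate to glucose and so commits it to metabolism inside the cell. F12E12.11 has the current name nta-1, and ZK742.3, ZK742.4 and C53B4.3 carry sequence names only. No role is given here for these 4.

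Total counts per library lay between 15836593 and 26908383 in nhr-131 with F17, 12836432 and 23618692 in nhr-131 with DMSO, 14403626 and 22465236 in wild type with F17, and 14834464 and 23150429 in wild type with DMSO. Levels are given as CPM, the counts of a gene relative to all counts of its library, scaled between libraries by TMM factors, and 3 counts equalled 0.110 to 0.282 CPM. The nhr-131 transcript had 0 to 4 counts in each library labelled nhr-131 and 77 to 196 counts in each wild-type library. In 6 libraries the marks of the step to adulthood were low: the adult cuticle collagen gene col-19 had 0.157 to 1.22 CPM there against 4.06 to 66.2 CPM in the other libraries, and the yolk protein gene vit-2 had 1.01 to 20.4 CPM there against 143 to 1335 CPM. These were library c of either nhr-131 group, libraries a and d of the wild-type F17 group, and libraries a and c of the wild-type DMSO group. They were set apart by the expression data, not by a label. The rule used the main axis (first principal component) of the deviations from group means over all tested genes. That axis held 53.9% of their variance, and the libraries were split at its largest gap. The stage marks served only to choose which end counts as low. For the results on the 6 genes that moved most, values without these 6 libraries are given beside those with all libraries. All 6 intestinal markers (elt-2, ges-1, vha-6, act-5, ifb-2 and pept-1) were detected, at a summed level of 3887 to 6326 CPM in nhr-131 with F17, 3938 to 6841 CPM in nhr-131 with DMSO, 3965 to 5613 CPM in wild type with F17 and 3572 to 6339 CPM in wild type with DMSO.

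ZK742.3 had the largest contrast of the 6. Its level was 13.1, 10.2, 15.4, 12.5 and 9.87 CPM in libraries a to e of nhr-131 with F17 and 10.6, 10.2, 10.5, 9.44 and 11.2 CPM in nhr-131 with DMSO. In wild type it was 902, 1459, 1826, 1511 and 1834 CPM with F17 and 64.2, 11.6, 59.5, 10.03 and 12.4 CPM with DMSO. The wild-type F17 libraries stood far above all others, and the nhr-131 libraries with F17 overlapped those with DMSO. With DMSO, the wild-type libraries split into 3 near the level of the mutant and 2, a and c, several times higher, which are the 2 with low stage marks in that group. On the log2 scale the effect of F17 was 0.23 (SE 0.43) in nhr-131 and 5.57 (SE 0.51) in wild type, where SE is the standard error of the fit. Without the 6 libraries with low stage marks the effect was 0.13 (SE 0.12) in nhr-131 and 7.22 (SE 0.17) in wild type. The ratio of the group means with F17 to DMSO in wild type was 47.7 with all libraries and 150 without those with low stage marks.

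ZK742.4 lies next to ZK742.3 on chromosome V, on the same strand, and both genes have 4 exons. Per library it had 2.88, 2.57, 5.28, 2.97 and 3.74 CPM in nhr-131 with F17 and 2.07, 3.72, 2.07, 2.79 and 2.75 CPM in nhr-131 with DMSO. In wild type it had 25.9, 15.05, 18.0, 24.7 and 18.3 CPM with F17 and 5.91, 3.52, 4.87, 3.57 and 4.00 CPM with DMSO. The wild-type F17 libraries lay above all others, and the remaining 3 groups overlapped. The effect of F17 was 0.38 (SE 0.23) in nhr-131 and 2.22 (SE 0.24) in wild type on the log2 scale. Without the libraries with low stage marks it was 0.08 (SE 0.20) in nhr-131 and 2.20 (SE 0.22) in wild type, and without library c of nhr-131 with F17 alone the effect in nhr-131 was 0.18. The 2 neighbours have nearly equal exonic lengths, 1399 and 1416 bases. Counts of ZK742.4 were 21.97% to 37.9% of those of ZK742.3 in nhr-131 with F17, 19.5% to 36.4% in nhr-131 with DMSO, 0.988% to 2.87% in wild type with F17 and 8.18% to 35.5% in wild type with DMSO. The highest share in wild type with F17, 2.87%, was in library a, and the 2 lowest in wild type with DMSO, 8.18% and 9.19%, were in libraries c and a.

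Both ZK742 genes overlap the annotated span of xpo-1, which is read from the opposite strand, and their exons do not overlap its exons. The library kit keeps the strand, but the sources used here do not say whether reads were counted by strand. xpo-1 itself had 149 ± 37.7 CPM in nhr-131 with F17, 161 ± 13.04 CPM in nhr-131 with DMSO, 171 ± 52.2 CPM in wild type with F17 and 175 ± 38.9 CPM in wild type with DMSO (SD, n = 5 each). Its F17 effect did not pass the test in either genotype (log2 -0.12, SE 0.20 in nhr-131 and -0.04, SE 0.20 in wild type, edgeR adjusted p = 0.99996 and 0.987). How the protein sequences of ZK742.3 and ZK742.4 compare was not analysed here, so reads shared between them cannot be judged.

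The sugar transporter gene swt-6 was nearly silent except in wild type with F17. It had 4.06, 3.19, 2.88, 4.19 and 3.04 CPM in nhr-131 with F17 and 1.04, 3.05, 1.26, 1.85 and 2.44 CPM in nhr-131 with DMSO. In wild type it had 83.6, 99.2, 105, 85.6 and 109.6 CPM with F17 and 2.93, 0.704, 4.36, 1.57 and 1.58 CPM with DMSO. The wild-type F17 libraries were close to each other and wholly above all others. In nhr-131 the F17 libraries lay mostly above the DMSO libraries, with 2 of 5 at or below the highest DMSO library. The log2 effect of F17 was 0.85 (SE 0.34) in nhr-131 and 5.40 (SE 0.38) in wild type. The DMSO values rest on few reads, 11 to 47 counts in nhr-131 and 9 to 111 counts in wild type. Again libraries a and c were the highest of wild type with DMSO, and without the libraries with low stage marks the effect was 0.76 (SE 0.24) in nhr-131 and 6.28 (SE 0.28) in wild type. The exons of swt-6 overlap those of R10D12.10 on the opposite strand, a gene whose group means were 1.48 to 2.66 CPM and whose F17 effect did not pass the test in nhr-131 (0.27, SE 0.68, edgeR adjusted p = 0.99996) or in wild type (0.44, SE 0.67, edgeR adjusted p = 0.940).

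The hexokinase gene F14B4.2 on chromosome I had the smallest effect of the 6 in wild type. It had 78.5, 87.9, 51.6, 82.7 and 70.5 CPM in nhr-131 with F17 and 68.0, 60.4, 54.7, 59.6 and 49.96 CPM in nhr-131 with DMSO. In wild type it had 118, 121, 146, 105 and 140.1 CPM with F17 and 35.0, 51.3, 36.9, 52.9 and 50.4 CPM with DMSO. The wild-type F17 libraries lay above all others. In nhr-131, 4 of 5 F17 libraries were higher than any DMSO library, and the other one, library c with low stage marks, lay below all but 1 of them. The log2 effect of F17 was 0.34 (SE 0.15) in nhr-131 and 1.48 (SE 0.15) in wild type. The 3 libraries of wild type with DMSO that lacked low stage marks spanned only 50.4 to 52.9 CPM, and libraries a and c were lower, the opposite of their place in ZK742.3 and swt-6.

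C53B4.3, on chromosome IV, was the one gene of the 6 whose F17 libraries also stood wholly above its DMSO libraries in the mutant. It had 40.2, 40.2, 28.4, 41.7 and 32.2 CPM in nhr-131 with F17 and 19.4, 27.0, 18.4, 20.2 and 21.4 CPM in nhr-131 with DMSO. In wild type it had 264, 405, 456, 402 and 486 CPM with F17 and 21.5, 20.2, 18.7, 21.2 and 17.9 CPM with DMSO. The gap was narrow in the mutant and wide in wild type, and the DMSO ranges of both genotypes overlapped. The log2 effect of F17 was 0.78 (SE 0.15) in nhr-131 and 4.34 (SE 0.17) in wild type, so the mutant's effect corresponded to a fold of 1.72 between group means and the wild type's to a fold of 20.2.

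F12E12.11, on chromosome II, was low in every group but wild type with F17. It had 3.0, 3.56, 2.05, 4.97 and 3.39 CPM in nhr-131 with F17 and 4.33, 1.90, 1.56, 2.56 and 3.38 CPM in nhr-131 with DMSO. In wild type it had 23.5, 20.1, 24.7, 22.7 and 25.6 CPM with F17 and 1.88, 3.83, 1.65, 2.42 and 2.20 CPM with DMSO. The wild-type F17 libraries formed a narrow band above all others, while the other 3 groups overlapped. The log2 effect of F17 was 0.32 (SE 0.28) in nhr-131 and 3.29 (SE 0.29) in wild type. The exons of F12E12.11 overlap those of F12E12.1 on the opposite strand, a gene with too few counts to be tested.

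**Figure D1:**
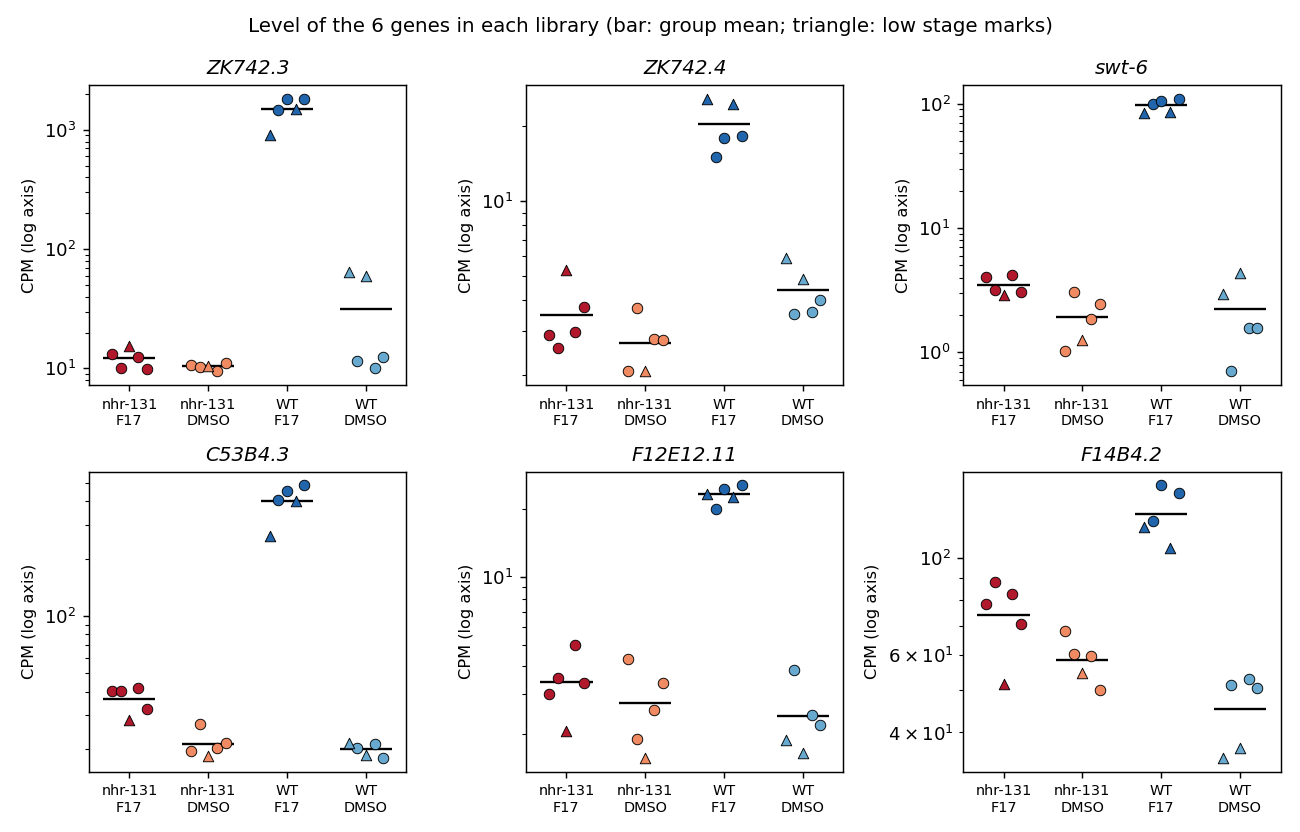
Level of each of the 6 genes in CPM on a log axis, 1 point per library (n = 5 per group), with a bar at the group mean and triangles for the 6 libraries with low stage marks. In every panel the 5 points of wild type with F17 stand above all others, and for ZK742.3 the 2 triangles of wild type with DMSO, at 64.2 and 59.5 CPM, lie above the 3 circles of that group.

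In nhr-131, 1 of the 6 genes, C53B4.3, had its F17 libraries wholly above its DMSO libraries. How many of all genes had groups that did not overlap was not counted, in this contrast or those below. The shares of genes called by edgeR are another measure and cannot be set against such a separation. In nhr-131, 0.478% of all genes were called for the F17 effect (66 of 13795, 65 higher and 1 lower, at an adjusted p under 0.05). In wild type all 6 had every F17 library above every DMSO library, a pattern that the choice of genes fixes, where 0.928% of all genes were called (128, 106 higher and 22 lower). Ranked among all tested genes by the estimated effect in wild type, ZK742.3 stood at 13, swt-6 at 14, C53B4.3 at 25, F12E12.11 at 38, ZK742.4 at 92 and F14B4.2 at 227. With F17, all 6 had every nhr-131 library below every wild-type library. This contrast is part of the difference that chose the genes, so nothing is read from that separation. Over all genes 1.28% were called in it. The log2 difference between genotypes with F17 was -6.95 for ZK742.3, -4.80 for swt-6, -3.46 for C53B4.3, -2.78 for F12E12.11, -2.55 for ZK742.4 and -0.76 for F14B4.2. In the same contrast the intestinal peptide transporter gene pept-1 was higher in nhr-131 (log2 0.61, SE 0.13, edgeR adjusted p = 0.0285) and the hypodermal collagen gene dpy-7 lower (-1.25, SE 0.27, edgeR adjusted p = 0.0261). The call of pept-1 was lost under 7 of 29 alternative settings and that of dpy-7 under 8 of 29, among them the fit without the libraries with low stage marks (-1.02, SE 0.31, edgeR adjusted p = 0.0648). With all libraries the other 5 intestinal and 2 hypodermal markers were not called, and the part of cell composition in the 6 differences was not tested. Leaving out the libraries with low stage marks did not make the genotypes alike in these marks with F17. In the remaining libraries vit-2 had 409 to 1335 CPM in nhr-131 and 143 to 315 CPM in wild type. The part of stage in the genotype differences with F17, here and below, was not tested.

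The difference of the F17 effects, nhr-131 minus wild type, was -5.34 (SE 0.64) for ZK742.3, -4.56 (SE 0.49) for swt-6, -3.56 (SE 0.22) for C53B4.3, -2.97 (SE 0.39) for F12E12.11, -1.84 (SE 0.33) for ZK742.4 and -1.13 (SE 0.21) for F14B4.2 on the log2 scale. Over all genes 0.246% were called for this difference, 30 with a lower and 4 with a higher effect in nhr-131. The 6 genes were chosen on this contrast, so nothing is read from their place among the called genes. Outside the cyp, ugt and gst families, 19 genes called higher with F17 in wild type were also called for a lower effect in nhr-131. The 6 are among these 19 and are not its top. By size of the difference F14B4.2 ranked 17, and genes not part of the 6 stood above it, such as C32H11.6 at -4.16 (rank 3) and apy-1 at -2.38 (rank 7). Just below F14B4.2 were C29F7.3 at -0.90 and C53B4.4 at -0.74. Without the libraries with low stage marks the difference was -7.09 (SE 0.20) for ZK742.3 and -5.51 (SE 0.36) for swt-6, and for the other 4 genes it moved by less than the spread between libraries.

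**Figure D2:**
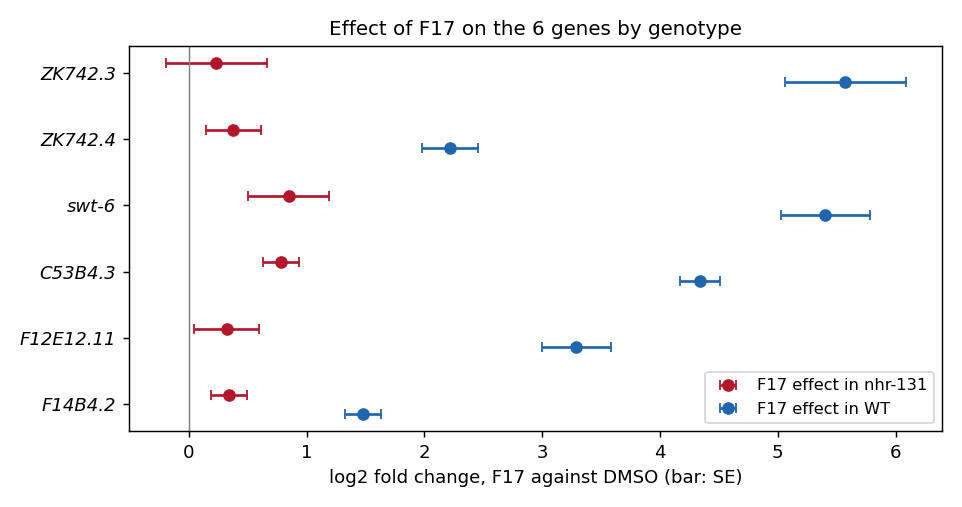
Log2 effect of F17 against DMSO on each of the 6 genes in nhr-131 (red) and in wild type (blue), with bars for the SE of the fit (5 libraries per group). The mutant effects lie between 0.23 and 0.85 and the wild-type effects between 1.48 and 5.57.

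**Figure D3:**
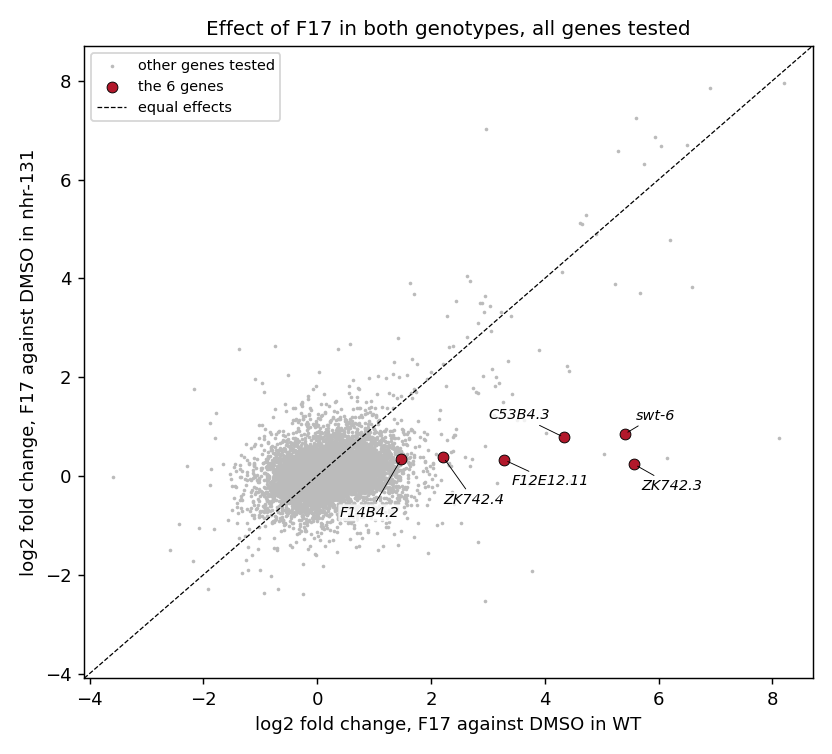
Log2 effect of F17 in nhr-131 (vertical) and in wild type (horizontal) for the 13795 genes tested, with the 6 genes in red and a dashed line where both effects are equal. The 6 genes lie along the lower part of the plot, at 0.85 or lower on the vertical axis and between 1.48 and 5.57 on the horizontal axis. They are not alone there. Other genes with large wild-type effects also lie far below the line, such as cyp-13A4 (0.77 in nhr-131 and 8.12 in wild type) and ugt-20 (0.36 and 6.14).

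How much of the response remained in the mutant depended on the measure. As a share of the wild-type increase in CPM, the increase in nhr-131 was 0.124% for ZK742.3, 1.63% for swt-6, 3.09% for F12E12.11, 3.99% for C53B4.3, 5.03% for ZK742.4 and 19.5% for F14B4.2. As a share of the wild-type log2 effect it was 4.2% for ZK742.3, 9.84% for F12E12.11, 15.7% for swt-6, 16.99% for ZK742.4, 18.0% for C53B4.3 and 23.3% for F14B4.2. Without the libraries with low stage marks the share of the increase was 0.0609% for ZK742.3, 1.47% for swt-6 and 1.52% for ZK742.4. It was 3.32% for F12E12.11, 3.87% for C53B4.3 and 24.2% for F14B4.2. The share of the log2 effect was then 1.85% for ZK742.3, 3.61% for ZK742.4 and 10.3% for F12E12.11. It was 12.2% for swt-6, 17.9% for C53B4.3 and 30.4% for F14B4.2. On both measures, with and without those libraries, ZK742.3 had the smallest share and F14B4.2 the largest. These are ratios of estimates that chose the genes, and no interval is given for them.

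Per kilobase of annotated exon, the order of the levels differed between groups. In wild type with F17 it was 1077 ± 271 CPM per kilobase for ZK742.3, 275 ± 58.2 for C53B4.3, 128 ± 15.5 for swt-6, 60.0 ± 8.004 for F14B4.2, 24.8 ± 2.23 for F12E12.11 and 14.4 ± 3.30 for ZK742.4 (SD, n = 5), and no neighbours in this order overlapped. In nhr-131 with F17 the order was F14B4.2 at 35.3 ± 6.75, C53B4.3 at 24.96 ± 4.02, ZK742.3 at 8.73 ± 1.64, swt-6 at 4.60 ± 0.805, F12E12.11 at 3.61 ± 1.12 and ZK742.4 at 2.46 ± 0.770 CPM per kilobase (SD, n = 5). There F14B4.2 overlapped C53B4.3, swt-6 overlapped F12E12.11, and F12E12.11 overlapped ZK742.4. With DMSO, ZK742.3 had 7.42 ± 0.452 CPM per kilobase in nhr-131 and 22.6 ± 19.8 in wild type, and F14B4.2 had 27.8 ± 3.21 in nhr-131 and 21.6 ± 4.11 in wild type (SD, n = 5). Since whole animals were extracted, a lower level from fewer cells that express a gene and one from less RNA in each cell cannot be told apart.

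Whether the 6 genes already differed between genotypes in the solvent was tested. None of the 6 passed edgeR's quasi-likelihood test over all genes, where 0.029% of all genes were called (4 of 13795, 1 higher and 3 lower in nhr-131). At an unadjusted edgeR p under 0.05 there were 3 of the 6, beside 575 of all 13795 genes tested. DESeq2's Wald test called 0 of the 6. ZK742.3 had 10.4 ± 0.632 CPM in nhr-131 and 31.6 ± 27.7 CPM in wild type (SD, n = 5), a log2 difference of -1.61 (SE 0.44, edgeR adjusted p = 0.674). That gap came with libraries a and c of wild type: without the libraries with low stage marks it was -0.14 (SE 0.13). ZK742.4 had 2.68 ± 0.682 CPM in nhr-131 and 4.37 ± 1.01 CPM in wild type, a difference of -0.71 (SE 0.23, edgeR adjusted p = 0.893), and -0.38 (SE 0.21) without those libraries.

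F14B4.2 leaned the other way, with 58.5 ± 6.74 CPM in nhr-131 and 45.3 ± 8.62 CPM in wild type, a log2 difference of 0.37 (SE 0.15, edgeR adjusted p = 0.985), and 0.20 (SE 0.11) without the libraries with low stage marks. The differences of C53B4.3 (0.10, SE 0.15), F12E12.11 (0.19, SE 0.28) and swt-6 (-0.24, SE 0.35) were smaller than their errors, with an edgeR adjusted p of 0.985 for each. The sign of all 3 turned when single libraries were left out, and that of swt-6 was 0.66 (SE 0.29) without the libraries with low stage marks. The 95% interval of the difference was -0.22 to 0.42 for C53B4.3, -0.40 to 0.78 for F12E12.11 and -0.98 to 0.49 for swt-6. An exact two-sided permutation test of log2 CPM, 5 against 5 libraries, gave an unadjusted p = 0.0556 for ZK742.3, 0.0238 for ZK742.4, 0.889 for swt-6, 0.532 for C53B4.3, 0.651 for F12E12.11 and 0.0317 for F14B4.2, the smallest p possible being 0.00794. The DMSO libraries also enter the contrasts on which the genes were chosen.

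Between the libraries with low stage marks and the others of their group, the levels of the 6 genes differed in varied directions. In nhr-131 with DMSO, the level in library c over the mean of the other 4 was 1.01 for ZK742.3, 0.604 for swt-6, 0.728 for ZK742.4, 0.838 for C53B4.3, 0.919 for F14B4.2 and 0.513 for F12E12.11. In wild type with DMSO, the mean of libraries a and c over the mean of the other 3 was 5.46 for ZK742.3, 2.84 for swt-6, 1.46 for ZK742.4, 1.02 for C53B4.3, 0.697 for F14B4.2 and 0.626 for F12E12.11. With F17 the ratio of the libraries with low stage marks to the others was 1.35 in nhr-131 and 0.707 in wild type for ZK742.3. It was 0.797 and 0.808 for swt-6 and 1.74 and 1.48 for ZK742.4. The high values of ZK742.3 and swt-6 were thus seen in wild type with DMSO and not in the single such library of nhr-131 with DMSO. In the wild-type DMSO libraries the ratios of detoxification genes varied widely. They were 16.9 for cyp-13A4, 10.3 for gst-8 (means of 2.19 and 0.212 CPM) and 7.20 for ugt-19, but 1.77 for ugt-20 and 1.46 for ugt-12. The summed level of col-19, vit-2 and vit-6 ranged between 9.38 and 3481 CPM in nhr-131 with F17, 5.77 and 1757 CPM in nhr-131 with DMSO, 26.3 and 776 CPM in wild type with F17, and 41.3 and 1202 CPM in wild type with DMSO. The part of stage in these ratios was not tested, and the ratios are a description of few libraries.

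**Figure D4:**
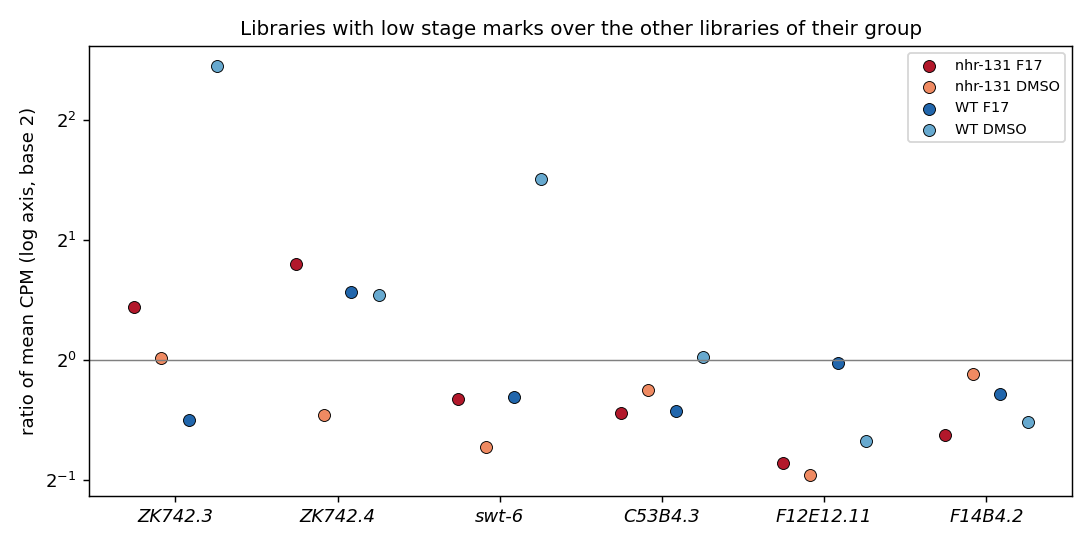
Mean CPM of the libraries with low stage marks divided by the mean of the other libraries of the same group, on a log axis, for each of the 6 genes (1 library of 5 in each nhr-131 group, 2 of 5 in each wild-type group). The points of wild type with DMSO stand at 5.46 for ZK742.3 and 2.84 for swt-6, and all other points lie between 0.513 and 1.74.

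Around the 6 genes, C53B4.4 was the one neighbour that edgeR called for a difference in response between genotypes, with all libraries. Of 13 tested genes that flank or overlap the 6, edgeR called 0 for the F17 effect in nhr-131 (1 by DESeq2). It called 1 for the effect in wild type (2 by DESeq2, 3 by edgeR without the libraries with low stage marks) and 1 for the difference (2 by DESeq2). At an unadjusted edgeR p under 0.05 there were 1 in nhr-131, 4 in wild type and 4 for the difference. Over all 13795 genes tested these numbers were 424, 1048 and 441. C53B4.4, now pdzd-8, is the next gene beside C53B4.3 and is read from the opposite strand. It had 82.7 ± 10.96 CPM in nhr-131 with F17, 82.7 ± 5.36 CPM in nhr-131 with DMSO, 140 ± 13.2 CPM in wild type with F17 and 83.4 ± 10.01 CPM in wild type with DMSO (SD, n = 5 each). The wild-type F17 libraries, at 124 to 154 CPM, lay above all others, which lay between 67.9 and 97.7 CPM. Its F17 effect was 0.00 (SE 0.10, edgeR adjusted p = 0.99996) in nhr-131 and 0.74 (SE 0.11, edgeR adjusted p = 0.000238) in wild type. The difference was -0.74 (SE 0.15, edgeR adjusted p = 0.0380), a call that was lost under 19 of 28 alternative settings. The collagen gene col-119, also near C53B4.3, had 3.61 ± 3.40 CPM in nhr-131 with F17, 0.609 ± 0.292 CPM in nhr-131 with DMSO, 0.607 ± 0.202 CPM in wild type with F17 and 1.60 ± 0.902 CPM in wild type with DMSO (SD, n = 5 each). Its difference of effects was 3.95 (SE 0.86) and did not pass edgeR's test (adjusted p = 0.0771). With F17 it was higher in nhr-131 than in wild type (log2 2.55, SE 0.61, edgeR adjusted p = 0.0449), a call that was lost under 16 of 28 alternative settings. Beside F14B4.2, the gene F14B4.1 had 0.675 ± 0.227 CPM in nhr-131 with F17, 0.787 ± 0.336 CPM in nhr-131 with DMSO, 1.76 ± 0.887 CPM in wild type with F17 and 0.457 ± 0.322 CPM in wild type with DMSO, an effect of 1.90 (SE 0.49) in wild type that did not pass the test (edgeR adjusted p = 0.0881).

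Among the other SWEET genes, which share with swt-6 the transport of sugars, swt-7 also responded to F17, in both genotypes. It had 145 ± 13.5 CPM in nhr-131 with F17, 39.5 ± 4.74 CPM in nhr-131 with DMSO, 329 ± 49.4 CPM in wild type with F17 and 36.2 ± 4.97 CPM in wild type with DMSO (SD, n = 5 each). It rose by 1.88 (SE 0.13, edgeR adjusted p = 8.13e-09) in nhr-131 and by 3.19 (SE 0.13, edgeR adjusted p = 3.88e-12) in wild type. The difference between these effects was -1.31 (SE 0.17, edgeR adjusted p = 0.000582). In nhr-131 the F17 libraries of swt-7, at 126 to 162 CPM, lay wholly above its DMSO libraries, at 36.03 to 47.8 CPM, whereas those of swt-6 overlapped. The other 4 tested genes of the family, swt-1, swt-3, swt-4 and swt-5, did not pass the test in either genotype, with effects of -0.45 to 0.17 in nhr-131 and -0.55 to 0.20 in wild type.

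No other hexokinase gene passed the test. Y77E11A.1 (hxk-3) had F17 effects of 0.01 (SE 0.11) in nhr-131 and -0.01 (SE 0.11) in wild type, and H25P06.1 (hxk-2) had -0.07 (SE 0.09) in nhr-131 and -0.15 (SE 0.09) in wild type. Neither gene was called by edgeR in any of the 5 contrasts, 0 of them had an unadjusted p under 0.05, and DESeq2 called 0. hxk-3 had 72.0 ± 5.74 CPM in nhr-131 with F17, 71.6 ± 5.99 CPM in nhr-131 with DMSO, 68.9 ± 2.73 CPM in wild type with F17 and 69.7 ± 12.1 CPM in wild type with DMSO (SD, n = 5 each). hxk-2 had 66.1 ± 4.88 CPM in nhr-131 with F17, 69.5 ± 5.55 CPM in nhr-131 with DMSO, 60.0 ± 3.74 CPM in wild type with F17 and 66.5 ± 7.28 CPM in wild type with DMSO (SD, n = 5 each).

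**Figure D5:**
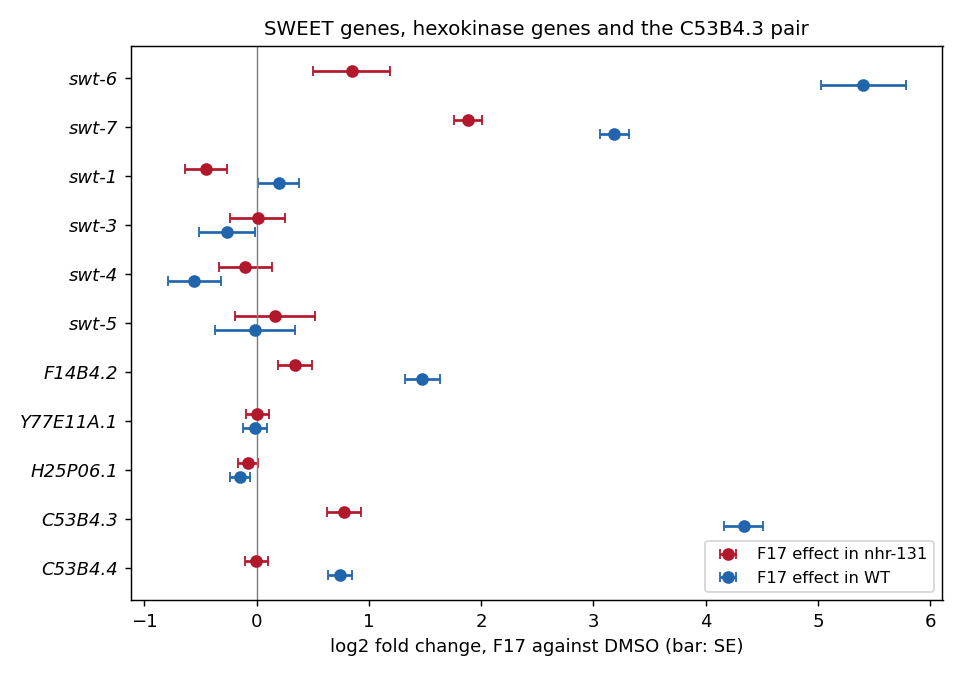
Log2 effect of F17 against DMSO in nhr-131 (red) and in wild type (blue), with bars for the SE of the fit (5 libraries per group), for swt-6 and the other tested SWEET genes, for the hexokinase genes F14B4.2, Y77E11A.1 and H25P06.1, and for C53B4.3 with its neighbour C53B4.4. Among the genes shown that are not part of the 6, swt-7 is at 1.88 in nhr-131 and 3.19 in wild type, C53B4.4 is at 0.00 and 0.74, and the remaining SWEET and hexokinase genes lie between -0.55 and 0.20.

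Genes of the pathways that sugars enter after transport and phosphorylation held no F17 effect in either genotype that edgeR called with all libraries. Of 18 tested genes of glycolysis and gluconeogenesis, 0 were called for the effect of F17 in nhr-131 or in wild type, 0 were at an unadjusted p under 0.05 and 0 were called by DESeq2; without the libraries with low stage marks 0 were called in nhr-131 and 1 in wild type. Their median effect was -0.14 in nhr-131 and -0.07 in wild type, beside medians of -0.01 over all genes in each genotype. Of 11 genes of trehalose and glycogen metabolism, 0 were called for either effect by edgeR or DESeq2 (0 at an unadjusted p under 0.05 in nhr-131 and 1 in wild type); without the libraries with low stage marks edgeR called 0 in nhr-131 and 1 in wild type. In that list tre-3, a trehalase gene, was higher in nhr-131 than in wild type when both had F17, at 55.9 ± 13.6 CPM in nhr-131 and 30.6 ± 2.77 CPM in wild type (log2 difference 0.87, SE 0.15, edgeR adjusted p = 0.00381). For that contrast 4 of the 11 were at an unadjusted edgeR p under 0.05, beside 2065 of all 13795 genes tested. Without the libraries with low stage marks edgeR called 4 of the 11, beside 1019 over all genes. Of 5 genes of the pentose phosphate pathway and 4 facilitated sugar transporter genes, 0 were called for either effect by edgeR or DESeq2. At an unadjusted p under 0.05 there was 1 facilitated transporter gene in wild type, and edgeR called 1 there without the libraries with low stage marks. Between genotypes with F17, edgeR called 0 of the 18 glycolysis and gluconeogenesis genes with all libraries (3 at an unadjusted p under 0.05, 1 by DESeq2). It called 2 without the libraries with low stage marks. Of the 4 facilitated transporter genes it called 0 with all libraries (2 at an unadjusted p under 0.05) and 3 without those.

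Of the 10 genes most like the 6 in pattern, 6 belong to the cyp, ugt and gst families. Likeness was the mean Pearson correlation of log2 CPM with the 6 genes over the 20 libraries, over 10638 candidate genes whose mean log2 CPM was 1 or more. It is a description only: libraries of a group share their genotype and treatment, and most of the correlation lies between groups. The highest were ugt-12 (0.937), ugt-20 (0.936), K08E3.5 (0.927), the apyrase gene apy-1 (0.923), nape-2 (0.910), cyp-13A4 (0.907), nstp-2 (0.906), gst-8 (0.906), ugt-19 (0.905) and cyp-13A5 (0.905). By gene, ZK742.3 and ZK742.4 were most like cyp-13A4 (0.995 and 0.965), swt-6 and C53B4.3 most like ugt-12 (0.983 each), F12E12.11 most like K08E3.5 (0.985) and F14B4.2 most like C29F7.1 (0.953). Of the 10, 4 were shared with the 10 highest by Spearman correlation and 0 with the 10 highest when deviations from the group means were correlated.

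ugt-12 had 82.3 ± 7.62 CPM in nhr-131 with F17, 53.8 ± 4.79 CPM in nhr-131 with DMSO, 487 ± 84.8 CPM in wild type with F17 and 63.1 ± 14.4 CPM in wild type with DMSO (SD, n = 5 each). K08E3.5 had 324 ± 50.7 CPM in nhr-131 with F17, 292 ± 39.3 CPM in nhr-131 with DMSO, 1108 ± 133 CPM in wild type with F17 and 269 ± 49.1 CPM in wild type with DMSO. In both genes wild type with F17 was the high group. Between pairs of the 6, the correlation over 20 libraries ran between 0.656 for ZK742.4 with F14B4.2 and 0.977 for swt-6 with C53B4.3. Within groups it ran between -0.732 for ZK742.4 with F14B4.2 and 0.683 for ZK742.3 with swt-6.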

How the data were processed

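RNA was sequenced from 20 libraries of whole L4 animals, 5 for each combination of genotype (nhr-131 mutant or wild type) and treatment (F17 or DMSO). Per the labels' protocols, RNA was extracted in Trizol, cleaned on columns with DNase treatment, and made into poly(A)-selected, strand-keeping libraries. The deposited values are raw whole-number counts of reads per gene, and the submitters' processing notes name TopHat2 and HTSeq. The sources used here give no tool version, genome build, annotation or strand setting, and coordinates are therefore left out. Columns carry a genotype, a treatment and a letter, which matched the groups of the labels but not single samples. All 20 columns were used. The p-values measure the spread between libraries that the submitters call independent biological replicates. No library was a copy of another in its group: chi-square divided by its degrees of freedom was at least 22.7.

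The analysis used R 4.3.3, edgeR 4.0.16 and limma 3.58.1. filterByExpr (minimum count 10) kept 13795 genes. After TMM scaling, all libraries entered a single quasi-likelihood fit of 4 group means (16 residual degrees of freedom), and contrasts were tested with Benjamini-Hochberg adjustment over all genes at 0.05. Log2 fold changes come from that fit, the SE was derived from that value and its F statistic, and means are given ± SD. The procedure was tested on simulated data. DESeq2 1.42.0, other scalings, filters and covariates were alternatives. The 6 genes, the gene lists and the tests were chosen with earlier results of these data known. Named besides the 6 genes and nhr-131 were up to 2 flanking genes on each side, overlapping genes, and the 10 most correlated genes and 3 per member. Called genes of the sugar and marker lists and the other SWEET and hexokinase genes were also named. C29F7.3, C32H11.6, xpo-1, R10D12.10, F12E12.1 and F14B4.1 were named as neighbours or by rank. Comparisons of protein and promoter sequences were not run, since no sequences were used here.

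An Ensembl annotation and the RefSeq gene table of assembly WBcel235 gave current names, strand, chromosome, neighbours and exonic lengths only; 13511 tested genes matched the RefSeq table. The column letters do not pair the libraries by the labels. In the counts, deviations of same-letter libraries from their group means had correlations between -0.681 and 0.818 over 30 pairs, and 6 of 20 libraries correlated best with a library of their own letter. The stage score used as a covariate is the mean z-score of col-19, vit-2 and vit-6.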

Additional observations from a re-analysis of the deposited data

Results flagged for a closer look

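In 14 genes named beside the 6, the effect of F17 differed between genotypes by edgeR's quasi-likelihood test of the difference (log2, nhr-131 minus wild type). It was -7.35 for cyp-13A4 (SE 1.11, adjusted p = 0.00290), -5.79 for ugt-20 (SE 0.30, adjusted p = 1.34e-09), -4.58 for ugt-19 (SE 0.70, adjusted p = 0.00319), -3.16 for cyp-13A5 (SE 0.65, adjusted p = 0.0478), -2.38 for gst-7 (SE 0.43, adjusted p = 0.0169) and -2.33 for ugt-12 (SE 0.20, adjusted p = 2.55e-06). Outside those families it was -2.38 for apy-1 (SE 0.24, adjusted p = 1.96e-05), -1.89 for K08E3.5 (SE 0.21, adjusted p = 4.70e-05), -1.87 for C29F7.1 (SE 0.32, adjusted p = 0.0101), -1.61 for nape-2 (SE 0.23, adjusted p = 0.00169), -1.60 for Y32F6B.1 (SE 0.33, adjusted p = 0.0486), -1.57 for nstp-2 (SE 0.17, adjusted p = 6.09e-05), -1.31 for swt-7 (SE 0.17, adjusted p = 0.000582) and -0.744 for C53B4.4 (SE 0.15, adjusted p = 0.0380). Most of these genes were named because their levels follow those of the 6 genes, which were chosen on this contrast. Neither their direction nor their passing of the test is independent of that choice, and nothing about the 6 is read from it. The calls of C53B4.4, cyp-13A5 and Y32F6B.1 were lost under 19, 22 and 20 of 28 alternative settings. Among the levels of the 6 genes and nhr-131 in 28 groups of 5 libraries, no single library stood apart by Dixon's 95% criterion (a gap of 0.71 of the group's range). That criterion takes only the gap at an end of the range, so it misses 2 libraries that stand apart together. ZK742.3 in wild type with DMSO was such a case, with 59.5 and 64.2 CPM in libraries c and a against 10.03 to 12.4 CPM in the others.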

How the results depend on the processing

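Directions of the F17 effects of the 6 genes, of their difference and of their gap with F17 held under all 28 or 29 alternatives run. In DMSO the log2 difference of swt-6 was 0.66 without the 6 libraries with low stage marks; with single libraries left out it ran between -0.46 and 0.15 for swt-6, -0.0030 and 0.14 for C53B4.3, and -0.026 and 0.41 for F12E12.11. None of the 6 was called in DMSO under any alternative (lowest adjusted p = 0.0905, ZK742.3 by DESeq2's Wald test).

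Counts of called genes moved more. The effect of F17 in nhr-131 had 66, 129 with the stage score as covariate and 140 without the 6 libraries; in wild type it had 128, 197 by DESeq2, 302 with the score and 906 without the 6 libraries. The difference of effects had 34, 52 by DESeq2, 59 with the score, 116 without the 6 libraries and with single libraries left out 19 (without library c of wild type with F17) to 31. nhr-131 against wild type in DMSO had 4, 11 by DESeq2, 9 with the score and 11 without the 6 libraries. With F17 it had 177, 536 by DESeq2, 744 with the score, 1019 without the 6 libraries, 107 in a fit of only these groups, and 83 (without library d of nhr-131 with F17) to 449 (without its library c). Because the 6 libraries were set apart by their distance from their own groups, the spread falls by construction when they are omitted; the cause of the other shifts was not tested. With the column letter as a replicate block the counts were 66, 123, 20, 5 and 187 in the order above; the letters do not pair the libraries. Of the 10 most alike genes, 4 were shared by Spearman correlation and 0 within groups. The difference of effects has no fit of 2 groups. swt-6, ZK742.4 and F12E12.11 with DMSO rest on few counts, which limits what their DMSO comparison can show.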
